A study of Mus musculus with 16 samples.

Results

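Trgv2 is a variable segment of the T cell receptor γ locus, and its transcripts were found in a minority of CD8 T cells of a tumor-draining lymph node. The cells described here were chosen by that transcript: every cell of the lymph node gene table with 1 or more UMI (unique molecular identifier, a count of captured RNA molecules) of Trgv2. There were 80 such cells among 3266, or 2.45% (exact 95% interval 1.95 to 3.04), and the other 3186 cells served for comparison. The mice were C57BL/6, 16 weeks old, with melanoma-associated vitiligo, a loss of skin pigment that accompanies an immune response to melanoma, and were sampled 45 days after surgical removal of the tumor. T cells were sorted as CD8+ CD44+, so all cells compared here share that gate, that disease state and that time. The 16 deposited samples are 4 libraries (RNA and receptor libraries of lymph node and of skin) run on 4 lanes each, so the lymph node is 1 library and no difference below has a replicate check. The labels do not state how many mice were pooled. All intervals cover counting error only, over cells or over UMIs, and no test was made because cells of 1 library are not replicates.

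T cells carry either an αβ receptor or a γδ receptor, and each chain is assembled from V and J segments, with a D segment in the β and δ chains. In CD8 αβ T cells the receptor binds peptide on MHC class I, whereas γδ T cells mostly do not depend on classical MHC. The γ locus can be rearranged and transcribed in thymocytes that go on to become αβ T cells, and a γ transcript alone therefore does not define a γδ T cell. Trgv2 lies at chr13:19336573-19337167 on the minus strand (GRCm38, GENCODE M21). It has 2 exons, a leader exon at chr13:19336984-19337167 that holds the 5′ UTR, and a V exon at chr13:19336573-19336879. Its partners on the same strand, Trgj2 and the constant gene Tcrg-C2, start 25268 and 29021 bases further downstream. Tcrg-V1, at chr13:19339989-19340454, stands 2821 bases away in the opposite direction.

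The V exons of Trgv2 and Tcrg-V1 are shown because reads of either can be assigned to the other, which bears on every value below. Over 304 aligned bases they were 96.1% identical, and Tcrg-V3 was 94.5% identical to Trgv2 over 307 bases, whereas Tcrg-V4 to Tcrg-V7 were at 48.3% to 67.1%. The 172 bases at the 3′ end of each V exon follow, 5′ to 3′ in the sense of the gene, from the GENCODE M21 transcripts, with the 8 bases that differ in capitals.
Trgv2, chr13:19336573-19336744, minus strand: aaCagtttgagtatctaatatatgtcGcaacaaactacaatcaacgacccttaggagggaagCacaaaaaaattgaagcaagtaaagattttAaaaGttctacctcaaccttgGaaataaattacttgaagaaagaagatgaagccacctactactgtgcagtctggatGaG
Tcrg-V1, chr13:19340283-19340454, plus strand: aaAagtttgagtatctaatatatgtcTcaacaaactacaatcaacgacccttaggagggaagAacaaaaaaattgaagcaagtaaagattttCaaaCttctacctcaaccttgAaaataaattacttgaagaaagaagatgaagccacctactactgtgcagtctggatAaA
The labels do not say how reads that match both segments were counted. The counts are therefore those the authors assigned to Trgv2, and a part from Tcrg-V1 or Tcrg-V3 cannot be told apart.

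The 80 cells held 135 Trgv2 UMIs. Of these cells 51 had 1 UMI, 17 had 2, 5 had 3, 2 had 4, 4 had 5 and 1 had 7. Most members thus sit at the threshold itself, and the cells just outside it are the 3186 with 0 UMIs. Median depth was 4394.5 UMIs per cell with Trgv2 (716 to 10948) and 4423 without (461 to 12576). The median mitochondrial share was 2.53% and 2.59%, and the median share of ribosomal protein genes was 36.7% and 42.8%. The library held 14556622 UMIs of 9428 genes.

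Trgv2 was unevenly spread over the 7 groups of cells obtained by clustering, which did not use receptor segment genes. Cluster 6, with 182 cells, was led by Lgals3, Csf1, Anxa1, Gzma, S100a4 and Itga1 and had the highest sum of 8 resident and effector markers (Itgae, Itga1, Gzmb, Gzma, Lgals3, S100a4, Ccr10 and Cxcr6), at 3781 CPM (a gene's share of all UMIs, scaled to 1000000) against 108 to 497 in the other clusters. It mixes markers of tissue-resident memory (Itga1) and of effector cells (Gzma, Gzmb) among its leading genes and is referred to by its number. In cluster 6, 39 cells had Trgv2, or 21.4% (15.7 to 28.1), and the gene was at 122 CPM. In all other clusters together, 41 cells had it, or 1.33% (0.955 to 1.80), at 4.30 CPM. The next highest share was in cluster 0, led by the NK receptor genes Klre1, Klra6, Klra7 and Klra3, where 20 of 607 cells had it (3.30%, 2.02 to 5.04). The lowest was in cluster 3, with 3 of 756 cells (0.397%, 0.0819 to 1.16). No cell type that must lack the transcript was available as a measure of free RNA, and the share in cluster 3, at a median depth of 4103 UMIs against 2549 in cluster 6, is the lowest level seen in the library.

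**Figure D1:**
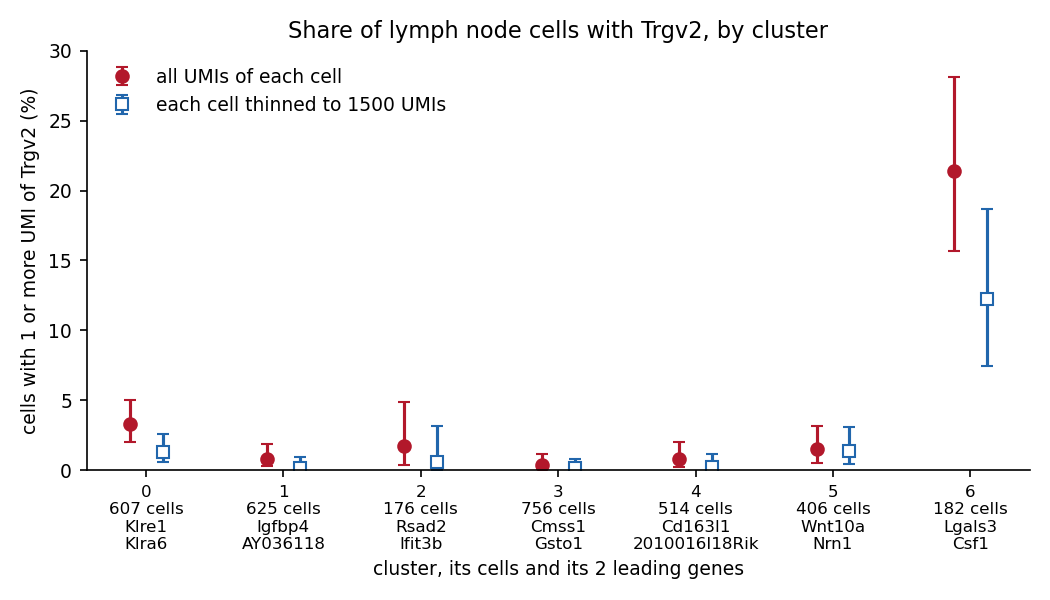
Percent of cells with 1 or more UMI of Trgv2 in each of the 7 clusters (filled circles, all UMIs; open squares, each cell thinned to 1500 UMIs), with exact 95% intervals that cover counting error only. Cluster 6 stands at 21.4% and cluster 0 at 3.30%, and the others lie between 0.397% and 1.70%.

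Cluster 6 was the shallowest cluster, and the difference kept its direction at equal depth. With each cell thinned to 1500 UMIs, 12.2% (7.42 to 18.7) of 147 cells in cluster 6 and 0.578% (0.337 to 0.923) of 2943 other cells had Trgv2, after 35 and 141 shallower cells were left out. Among cells with 5470 or more UMIs, 15 of 33 cells in cluster 6 had it (45.5%, 28.1 to 63.6), against 11 of 785 elsewhere (1.40%, 0.701 to 2.49). Of the 29 cells with 2 or more Trgv2 UMIs, 18 were in cluster 6. The 7-UMI cell and 3 of the 4 cells with 5 UMIs were also there.

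**Figure D2:**
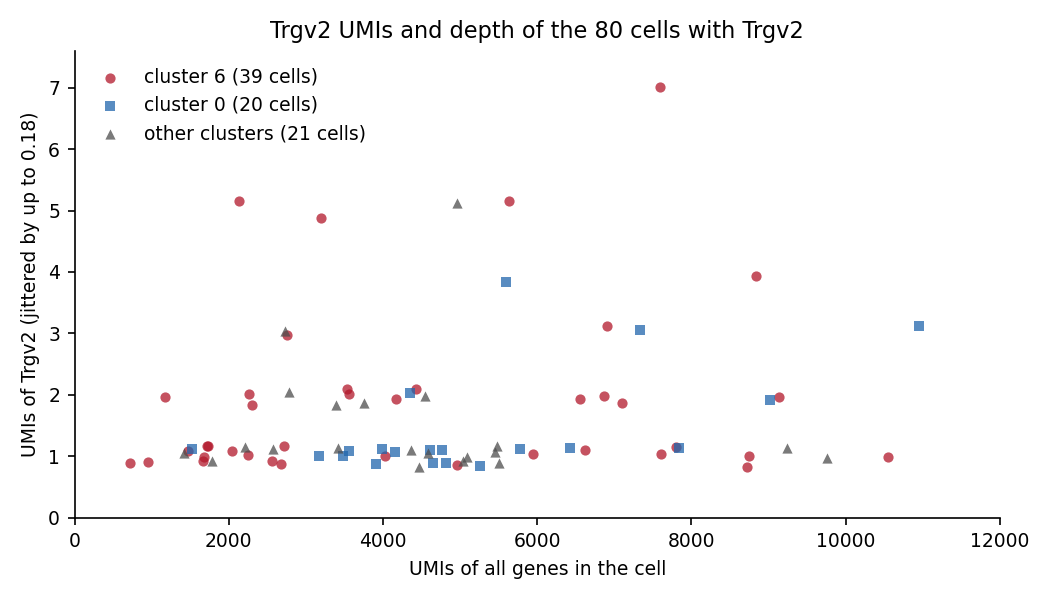
Each point is 1 of the 80 cells with Trgv2, with its total UMIs on the x axis and its Trgv2 UMIs on the y axis, jittered for display. The 39 cells of cluster 6 (circles) span 716 to 10553 UMIs and reach 7 Trgv2 UMIs, and the 20 cells of cluster 0 (squares) reach 4.

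The sort label held in these cells. Cd8a or Cd8b1, the chains of CD8, had a UMI in 77 of the 80 cells with Trgv2 (96.3%, 89.4 to 99.2) and in 3133 of 3186 without (98.3%, 97.8 to 98.8). Cd3e, a signalling chain of both receptor types, had a UMI in 78 and in 3034 cells. B cell markers, of which 7 of 11 were measured, summed to 196 CPM with Trgv2 and 235.5 without. Most of the sum without Trgv2 was Ighm, at 93.8 and 174 CPM (-0.88, -1.42 to -0.41), in 26 and 1529 cells. Ighd was at 0 UMIs in the 80 cells, where 3 counts would be 8.04 CPM, against 6.63 CPM, so it was too sparse to compare. Cd79b had UMIs in 11 of the 80 cells and in 331 of the others. Cd74, the MHC class II invariant chain, was at 56.3 and 23.1 CPM (1.25, 0.57 to 1.92), in 9 and 150 cells. Myeloid markers (3 of 13 measured) summed to 83.1 and 90.3 CPM, CD4 T cell markers (4 of 6) to 80.4 and 51.4 CPM, and NK and innate lymphoid markers (2 of 8) to 145 and 126 CPM. Among the CD4 markers, Cd40lg (CD40 ligand) was at 21.4 and 7.54 CPM (1.39, 0.26 to 2.54), in 4 and 86 cells. The part of other cells in the results below was not tested.

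Barcodes with more than 1 β chain were more frequent among the cells with Trgv2. Such barcodes can hold more than 1 cell, and no doublet caller was run. In all, 18 of 80 carried 2 or more TRB sequences (22.5%, 13.9 to 33.2), against 297 of 3186 (9.32%, 8.33 to 10.4). In cluster 6 this was 13 of 39 (33.3%, 19.1 to 50.2) against 13 of 143 (9.09%, 4.93 to 15.04), and in the other clusters 5 of 41 (12.2%, 4.08 to 26.2) against 284 of 3043 (9.33%, 8.32 to 10.4). Within cluster 6, Trgv2 was found in 10.9% of barcodes with no TRB, 19.1% of those with 1 TRB and 13 of 26 with more, whose median depths were 1583.5, 2673 and 6598 UMIs. Without barcodes of 2 or more TRB, 16.7% of cells in cluster 6 and 1.29% of other cells had Trgv2. None of the 80 barcodes was among the 12 that the lymph node and skin receptor tables share.

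The presence of an αβ receptor was read from the separate receptor library, which the choice of cells did not use. Most cells with Trgv2 carried both chains. A productive, full-length, high-confidence TRA contig (an assembled α chain) was on 60 of 80 barcodes with Trgv2 (75%, 64.1 to 84.0) and on 75.7% (74.2 to 77.2) of those without. A TRB contig was on 68 (85.0%, 75.3 to 92.0) and on 89.0% (87.8 to 90.02). Both chains were on 59 (73.8%, 62.7 to 83.0) and on 73.8% (72.3 to 75.3), and neither was on 11 (13.8%, 7.07 to 23.3) and on 9.13% (8.16 to 10.2). The intervals of the cells with Trgv2 held the value of the other cells for each of these 4 shares, and a difference of this size was not detectable with 80 cells. The best contig of a barcode had a median of 4 UMIs for TRA on both sides, and 7.5 with and 8 without Trgv2 for TRB.

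The 29 cells with 2 or more Trgv2 UMIs had higher shares with contigs. Of these, 28 had a TRB contig (96.6%, 82.2 to 99.9), 25 had both chains (86.2%, 68.3 to 96.1) and 1 had neither. Their median depth was 4425 UMIs. Among cells of 3000 to 6000 UMIs, 34 of 36 with Trgv2 (94.4%, 81.3 to 99.3) and 94.7% (93.6 to 95.7) of 1952 without had a TRB contig, and 31 (86.1%, 70.5 to 95.3) and 79.4% (77.5 to 81.1) had both chains.

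Within cluster 6, the cells with Trgv2 had contigs more often than the rest, at a greater depth. TRB was on 34 of 39 (87.2%, 72.6 to 95.7) against 102 of 143 (71.3%, 63.2 to 78.6), and both chains on 29 (74.4%, 57.9 to 87.0) against 81 (56.6%, 48.1 to 64.9). Their median depths were 3560 and 2389 UMIs, and the part of depth in this difference was not tested. In the other clusters TRB was on 34 of 41 cells with Trgv2 (82.9%, 67.9 to 92.8) and on 89.8% (88.6 to 90.8) of those without, at median depths of 4582 and 4469 UMIs. Neither chain was on 6 of the 41 (14.6%, 5.57 to 29.2), against 8.41% (7.45 to 9.46).

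**Figure D3:**
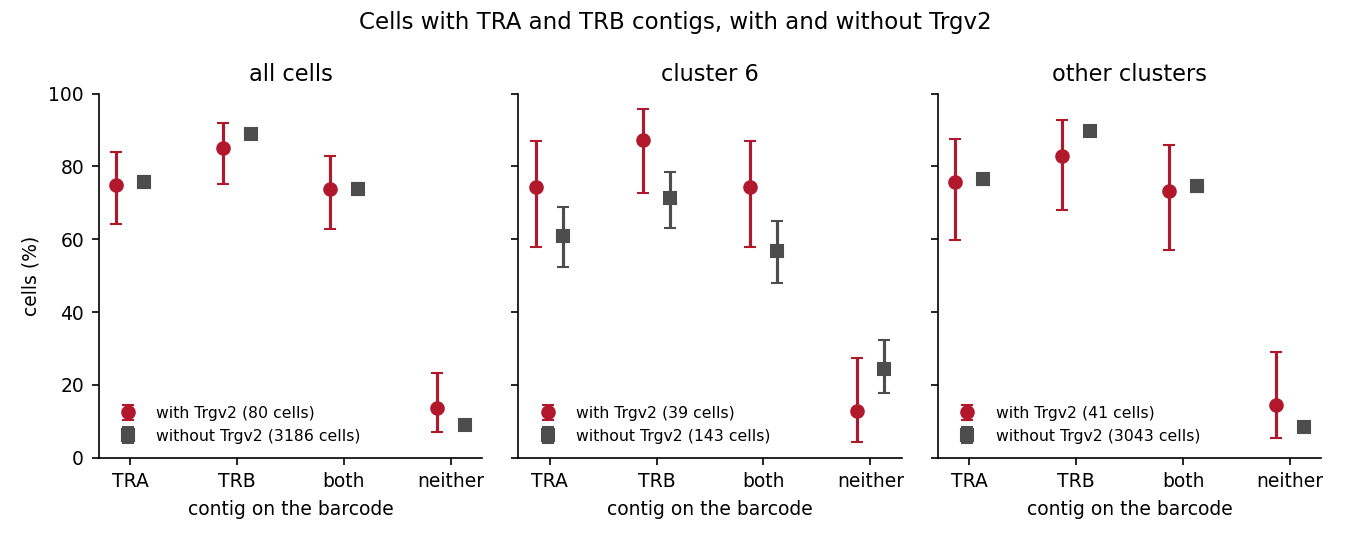
Percent of cells whose barcode carried a TRA contig, a TRB contig, both or neither, with Trgv2 (circles) and without (squares), in all cells, in cluster 6 and in the other clusters, with exact 95% intervals that cover counting error only. Over all cells the paired shares lie within the intervals of the 80 cells, and in cluster 6 the cells with Trgv2 stand higher for TRA, TRB and both.

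Receptor RNA in the gene table differed little. Of the 12 measured genes of the αβ receptor, CD3 and coreceptor list, none was past 2-fold in either direction, where a log2 ratio of CPM of 1 counts as 2-fold. Trac, the α constant gene, was at 290 CPM with Trgv2 and 222 without, a log2 ratio of 0.38 (0.09 to 0.66). Of the β constant genes, Trbc1 was at 64.3 and 84.3 CPM (-0.38, -1.04 to 0.19) and Trbc2 at 190 and 173 CPM (0.14, -0.22 to 0.48). The CD3 genes Cd3d, Cd3e, Cd3g and Cd247 had log2 ratios between -0.27 and 0.41. Cd8a was at 745 and 554 CPM (0.43, 0.25 to 0.60), and Cd8b1 at 1375 and 1397 (-0.02, -0.15 to 0.10). The costimulatory and inhibitory surface receptors Cd28, Cd5 and Cd6 had log2 ratios of -0.36, -0.51 and 0.13, and the interval of Cd5 (-0.99 to -0.08) left out 0. At least 1 UMI of Trac, Trbc1 or Trbc2 was seen in 77.5% (66.8 to 86.1) and 80.7% (79.2 to 82.0) of cells. The sort gene Cd44 was at 113 and 70.9 CPM (0.66, 0.19 to 1.11).

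Few γδ markers other than Trgv2 could be measured in these cells. Of 30 further gene names of the γ and δ loci, 1 was found in the gene table: Trdv2-2, a δ variable segment. The γ and δ constant genes were not found under the names searched, so the gene table could not show their presence or absence. Trdv2-2 had 1 UMI in 1 of the 80 cells (1.25%, 0.0316 to 6.77) and UMIs in 44 of the 3186 (1.38%). The receptor table held 46 contigs of mixed chain, 43 of them with a TRDV segment, and 1 lay on a barcode with Trgv2 and 43 on gene table barcodes without it. It held 0 contigs named as a TRG or TRD chain, so it could not show whether a cell had a γδ receptor. The invariant α rearrangements of NKT cells (TRAV11 with TRAJ18) and of MAIT cells (TRAV1 with TRAJ33) were on 0 of the 80 barcodes. Of 17 genes of a γδ T cell program, 5 were measured and 3 had 50 or more UMIs. Cd163l1, a scavenger receptor found on γδ T cells, was at 48.3 and 24.04 CPM (0.98, 0.23 to 1.69), but its 18 UMIs came from 8 cells and the log2 ratio was -1.63 in cells of 3000 to 6000 UMIs. Its relative 5830411N06Rik was at 26.8 and 10.1 CPM (1.33, 0.32 to 2.33), and at -0.45 in those cells. Id3, an inhibitor of E protein transcription factors, was at 134 and 154 CPM (-0.20, -0.63 to 0.20).

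Of the genes that flank the γ locus, Stard3nl stood apart. It encodes a late endosomal cholesterol-binding protein and is the first protein-coding gene upstream of Trgv2, on the same strand at chr13:19357676-19395795, with 20508 bases between them. It was at 75.1 CPM with Trgv2 and 29.1 without (1.34, 0.76 to 1.92), with UMIs in 26 of 80 cells (32.5%, 22.5 to 43.9) and 375 of 3186 (11.8%). Outside cluster 6 it was at 75.9 and 27.6 CPM (1.43, 0.61 to 2.20). Within cluster 6 the levels were 74.2 and 77.2 CPM (-0.06, -1.10 to 0.90), from 47 UMIs in all, which is under the minimum of 50. Whether these ratios differ from each other was not tested. Outside cluster 6, with cells thinned to 1500 UMIs, 2 of 40 cells (interval 0.611 to 16.9%) and 3.72% had a UMI, so the share did not show the difference at that depth. The other measured neighbours Rala, Yae1d1 and Vps41 had log2 ratios of 0.52, -0.09 and -0.35, with intervals that held 0.

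The clones of these cells were diverse. A clone, defined by identical TRA and TRB CDR3 nucleotide sequences (the junction that contacts antigen) in cells with exactly 1 TRB, taking the α chain with most UMIs where there were 2, could be given to 44 of the 80, and these were 44 different clones with 44 different TRB sequences. The V segments given here are those held by most of these 44 cells. A higher share than in the other cells can thus follow from the choice, also in cluster 6. TRBV3 and TRBV12-2 were each used by 7 of the 44 (15.9%, 6.64 to 30.1), against 7.56% and 8.37% of 2091 cells without Trgv2, and TRBV19 by 4 (9.09%, 2.53 to 21.7) against 5.83%. In cluster 6, TRBV3 was used by 5 of 19 (26.3%, 9.15 to 51.2) and by 2 of 69 (2.90%, 0.353 to 10.1). The α segments TRAV14D-2, TRAV6-6, TRAV9D-3 and TRAV3D-3 were each used by 3 of the 44 (6.82%, 1.43 to 18.7), against 1.48%, 3.59%, 2.82% and 4.69%.

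Of the 44 clones, 8 were also in the skin receptor table, and all 8 cells were in cluster 6. This was 18.2% (8.19 to 32.7) of the cells with Trgv2 and a clone, against 20 of 2091 (0.956%, 0.585 to 1.47) without. Within cluster 6 the shares were 8 of 19 (42.1%, 20.3 to 66.5) and 17 of 69 (24.6%, 15.05 to 36.5), whose intervals overlap. Clones with 2 or more lymph node cells took 5 of the 44 (11.4%, 3.79 to 24.6) and 4.93% (4.04 to 5.94) of the others. In cluster 6 they took 5 of 19 (26.3%, 9.15 to 51.2) and 4 of 69 (5.80%, 1.60 to 14.2), and outside it 0 of 25 (0 to 13.7).

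The TRB CDR3 sequences of the 8 clones shared with skin, and of a ninth clone with 2 lymph node cells, are printed because they show αβ junctions on barcodes with Trgv2. Clones are numbered by their cells in skin, which were 7, 4, 4, 4, 2, 1, 1, 1 and 0, and the sequences run 5′ to 3′ from the conserved cysteine codon to the conserved phenylalanine codon, in lower case throughout.
clone 1, TRBV3 with TRBJ1-4: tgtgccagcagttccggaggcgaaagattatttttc
clone 2, TRBV3 with TRBJ2-5: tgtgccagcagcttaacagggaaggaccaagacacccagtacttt
clone 3, TRBV29 with TRBJ2-5: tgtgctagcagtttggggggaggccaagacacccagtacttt
clone 4, TRBV20 with TRBJ1-1: tgtggtgttgggacaacagaagtcttcttt
clone 5, TRBV26 with TRBJ1-1: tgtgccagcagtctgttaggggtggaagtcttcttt
clone 6, TRBV3 with TRBJ2-5: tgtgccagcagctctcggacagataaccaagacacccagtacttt
clone 7, TRBV10 with TRBJ1-2: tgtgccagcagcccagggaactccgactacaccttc
clone 8, TRBV12-1 with TRBJ2-7: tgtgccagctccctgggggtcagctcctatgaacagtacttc
clone 9, TRBV1 with TRBJ2-1: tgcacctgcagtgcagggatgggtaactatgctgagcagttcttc
The Trgv2 counts of these barcodes were 2 UMIs in clones 1, 2, 6, 7 and 8, 5 in clones 5 and 9, and 1 in clones 3 and 4. In clones 3, 4 and 9 a further cell of the same clone was in the gene table, also in cluster 6, and had 0 Trgv2 UMIs. Of the 49 clones with 2 or more cells in the gene table, these 3 held a cell with Trgv2 and 0 held more than 1, so the transcript was not seen in all cells of a clone at this depth.

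Across all genes, cells with Trgv2 carried more RNA of effector, residency and NK receptor genes. Of 9037 genes with 50 or more UMIs, 398 were at least 2-fold higher, which is 4.4%, and 491 at least 2-fold lower, which is 5.43%. The interval also left out 0 for 253 of the higher and 48 of the lower. The median log2 ratio over all genes was 0.10, and centring on it by median-of-ratios scaling, a shift of 0.12, moved the split to 303 higher and 592 lower. Of the 491 lower genes, 446 had 3 UMIs or fewer in the cells with Trgv2, so this count rests mostly on sparse genes.

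The highest ratio was that of Gzma, a serine protease of cytotoxic granules, at 418 CPM with Trgv2 and 21.0 without (4.25, 4.03 to 4.60). Its 156 UMIs came from 19 of the 80 cells, so its counting interval is narrower than the spread between cells. Cx3cr1, the fractalkine receptor of effector T cells, was at 53.6 and 2.54 CPM (3.95, 3.54 to 5.23), with UMIs in 15 of 80 and 29 of 3186 cells. Lgals3 (galectin-3) was at 212 and 15.2 CPM, and Fgl2, a secreted immunoregulatory protein, at 99.2 and 6.84 CPM. The collagen-binding integrin chain Itga1 was at 72.4 and 5.99 CPM, and granzyme Gzmb at 161 and 14.7 CPM. The next in rank were Itsn1, Anxa1, S100a4, Fcer1g, Csf1 and Itgae, with log2 ratios from 3.31 down to 2.72. Itgae encodes the αE integrin CD103 that binds E-cadherin on epithelium, and it had a UMI in 44 of 80 cells (55.0%, 43.5 to 66.1) and 10.7% of the others. Apart from Itgae, these highest genes were in 0.910% (Cx3cr1) to 9.26% (S100a4) of cells without Trgv2. Those genes thus met the naming rule's minimum share only through the cells with Trgv2, which makes their rank a description. The lowest ratios by the naming rule were those of Uckl1, Rcn2, Treml2, N4bp2, Scaf1, Ttf1, Pef1, Dapl1, Rraga, Asap1, Acsl5 and Ascc1, from -2.11 to -1.28. Among these, Dapl1 had the most UMIs in the cells with Trgv2, at 64.3 and 176 CPM (-1.44, -2.10 to -0.88). The others had 2 to 7 UMIs in the 80 cells, and the upper ends of their intervals ran from -0.66 (Treml2) to -0.02 (Pef1).

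By group, 16 of 19 effector genes were at least 2-fold higher and 0 lower, with a median log2 ratio of 2.03 against 0.10 for all genes. Of NK receptor and innate-like genes 11 of 16 were higher (median 1.46), led by Fcer1g and Klrk1, of residency genes 9 of 19 (0.95), led by Itga1 and Pdcd1, and of chemokine receptors 5 of 8 (1.42), led by Ccr8 and Ccr10. In cells of 3000 to 6000 UMIs the residency median was 0.47 and the chemokine receptor median 0.46, and the NK receptor median was 0.62 with cells thinned to 1500 UMIs and 0.91 with 2 or more Trgv2 UMIs. Recirculation genes had 0 of 18 higher and 2 lower (median -0.04), and stem-like memory genes 0 of 18 higher and 2 lower (-0.20). Among all genes 4.4% were higher and 5.43% lower, and lists of 18 are too short to tell these counts from that share. Of the lower stem-like memory genes, Lef1 was at 99.2 and 200 CPM (-1.001, -1.52 to -0.54). Of the regulators that act on the γ locus or in early T cells, Id2 was higher at 531 and 93.1 CPM (2.50, 2.29 to 2.73), Lef1 lower, and the other 15 measured members were within 2-fold. In the IL-7 and IL-15 receptor and STAT5 group, whose signals open the γ locus in developing T cells, the STAT5 target Cish was higher (42.9 and 7.90 CPM, 2.30, 1.59 to 3.20) and 14 of 15 were within 2-fold. Cish is a leading gene of cluster 6, and within that cluster it was at 68.5 and 99.9 CPM (-0.54, -1.60 to 0.40). Outside cluster 6 its ratio of 1.84 (0.12 to 3.45) rested on 4 UMIs in 3 cells. Of anergy-like and inhibitory genes 4 of 11 were higher, with Pdcd1 at 34.9 and 4.37 CPM and Tigit at 32.2 and 6.63 CPM, each in 7 of the 80 cells. Another 4 had a log2 ratio below 0, among them Cd200 (-0.59) and Izumo1r (-0.40). The list median was 0.145, against 0.10 for all genes, so the list as a whole was not shown to be higher. Early activation genes had 3 of 17 higher, TGF-β response genes 2 of 11, and interferon response and cell cycle genes 1 of 17 and 1 of 14, beside 4.4% of all genes.

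Since 39 of the 80 cells were in cluster 6, the comparison was repeated within it and outside it.

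Within cluster 6 few of the abundant genes differed by 2-fold. Of 1635 genes with 50 or more UMIs, 8 were at least 2-fold higher, or 0.489%, and 21 lower, or 1.28%, with a median log2 ratio of -0.05. The count depends on that minimum: 302 genes were higher with a minimum of 10 UMIs and 945 with none. The 6 highest by the naming rule were Ctcf, a chromatin insulator protein, at 154 and 61.3 CPM (1.31, 0.50 to 2.15), Fgl2 at 188 and 79.5 CPM (1.23, 0.51 to 1.97), Phip (1.05), Gzma (1.04), and the RNA-binding proteins Hnrnpul2 (1.04) and Hnrnpd (1.02). Ctcf had a UMI in 19 of 39 cells with Trgv2 and in 24 of 143 without, and at 1500 UMIs per cell in 12 of 35 (34.3%, 19.1 to 52.2) and 9.82%. Gzma was at 793 and 384 CPM (0.71 to 1.38), in 16 of 39 and 15 of 143 cells, but at a log2 ratio of 0.13 (-0.42 to 0.65) when the cells with exactly 1 Trgv2 UMI were left out. The 6 lowest were the protease Capn2 (-1.61), the arginine synthesis enzyme Ass1 (-1.61), the polyamine enzyme Sat1 (-1.46), the lipid hydrolase Faah (-1.30), the desmosome protein Pkp3 (-1.24) and the lipid transfer protein Pitpna (-1.21). Ass1 was at 51.3 and 159 CPM (-2.82 to -0.62).

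Of the gene groups, effector genes in cluster 6 had 1 of 13 at least 2-fold higher. NK receptor (5 measured), residency (7), chemokine receptor (4), recirculation (15) and stem-like memory genes (8) had 0 past 2-fold in either direction. Among all genes there, 0.489% were higher and 1.28% lower, so these counts do not show that the groups were alike. At 3000 to 6000 UMIs the medians went from 0.08 to 1.07 for residency, 0.145 to 0.83 for effector and -0.08 to 0.455 for chemokine receptor genes. They went from 0.35 to 0.24 for NK receptor and -0.23 to -0.39 for recirculation genes. Among residency genes Itgae was at 542 and 384 CPM (0.50, 0.12 to 0.87). It had a UMI in 38 of 39 cells (97.4%, 86.5 to 99.9) and in 82 of 143 (57.3%, 48.8 to 65.6), and at 1500 UMIs per cell in 20 of 35 (57.1%, 39.4 to 73.7) and 33.9%. Gzmb had a UMI in 19 of 39 (48.7%, 32.4 to 65.2) and 32 of 143 (22.4%, 15.8 to 30.1), and in 40.0% (23.9 to 57.9) and 17.9% at 1500 UMIs. The activating receptor Klrk1 (NKG2D) and the inhibitory receptor Klrc1 (NKG2A) had UMIs in 74.4% and 56.4% of cells with Trgv2 and in 47.6% and 23.8% of the others, but at 1500 UMIs the shares were 37.1% and 17.1% against 31.3% and 16.1%. Their levels at 3000 to 6000 UMIs, in 9 and 30 cells, had log2 ratios of 0.99 (0.06 to 1.90) for Klrk1 and 1.18 (-0.08 to 2.41) for Klrc1, so these ways of matching depth did not give the same picture. Recirculation gene Itgb1 was at 297 and 547 CPM (-0.88, -1.34 to -0.45), and Il7r, the IL-7 receptor α chain, at 793 and 1019 CPM (-0.36, -0.65 to -0.08).

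Outside cluster 6 the highest ratios by the naming rule were those of Fcer1g, Klra1 and Klrc2, of the NK receptor and innate-like list. Most of that list was too sparse to be compared within cluster 6, where 5 of 16 genes had 50 or more UMIs. Pdcd1 (3.26) and Gzma (3.07) stood between Fcer1g and Klrc2. Each was in 7.32% of the 41 cells, under the rule's share of 10%. Of 8941 genes, 532 were at least 2-fold higher, or 5.95%, and 1140 lower, or 12.8%, of which 1102 had 3 UMIs or fewer in the 41 cells, and the interval left out 0 for 192 and 51. The highest by the naming rule was Fcer1g, a signalling adaptor of NK cells and myeloid cells, at 60.7 and 3.57 CPM (3.76, 3.04 to 5.02). It was followed by Klra1 (Ly49A, an inhibitory receptor for MHC class I) at 60.7 and 6.11 CPM (3.12, 2.30 to 4.19), Klrc2 (the activating receptor NKG2C) at 35.4 and 4.15 CPM (2.82, 1.72 to 4.23), the adhesion molecule Epcam (2.62, 1.26 to 4.28), Spindoc (2.57, 1.32 to 4.03) and Ikzf2. Ikzf2 encodes Helios, a transcription factor of regulatory and some innate-like T cells, and was at 96.1 and 15.6 CPM (2.54, 1.86 to 3.30). Epcam and Spindoc rest on 5 and 6 UMIs. All 6 of these genes, Klra1 and Ikzf2 included, were in 1.12% to 4.70% of cells without Trgv2. They thus met the naming rule's share of 10% only through the cells with it, which makes their rank a description. The 6 lowest had 0 or 1 UMI in the 41 cells. Lrrc47 and Rcn2 had 0 UMIs, where 3 counts would be 15.2 CPM, against 24.4 and 24.1 CPM, and Adrm1, Ehd1, Snhg4 and Rabggta had 1 UMI each, with log2 ratios of -2.71 (-8.24 to -0.45), -2.55 (-8.08 to -0.29), -2.48 (-8.01 to -0.21) and -2.33 (-7.85 to -0.05).

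**Figure D4:**
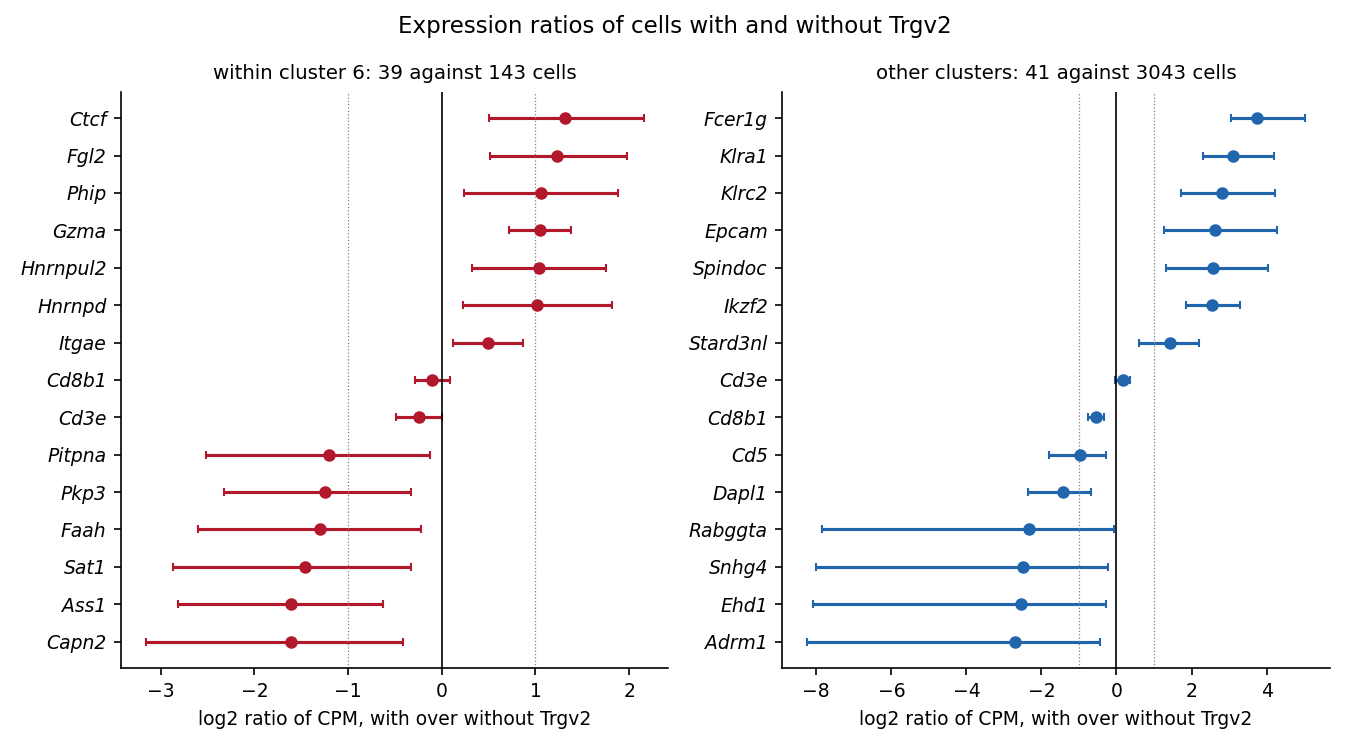
Log2 ratio of CPM of cells with Trgv2 over cells without, within cluster 6 (left) and in the other clusters (right), for named genes; bars are exact 95% intervals of the ratio that cover counting error only, and dotted lines mark 2-fold. In cluster 6 the ratios run from -1.61 to 1.31 and in the other clusters from -2.71 to 3.76, where Lrrc47 and Rcn2, at 0 UMIs with Trgv2, are not drawn, with Fcer1g and the NK receptor genes at the top.

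Of the lists described, NK receptor and innate-like genes had the highest median there. Of 16 genes, 10 were at least 2-fold higher and 0 lower, all 16 had a log2 ratio above 0, and the median was 1.78 against 0.01 for all genes. That median was 0.94 in cells of 3000 to 6000 UMIs and 0.89 with cells thinned to 1500 UMIs. At least 1 UMI of the 5 Ly49 genes Klra1, Klra3, Klra6, Klra7 and Klra9, which encode MHC class I receptors of NK cells, was seen in 22 of 41 cells with Trgv2 (53.7%, 37.4 to 69.3) and in 535 of 3043 without (17.6%, 16.2 to 19.0). At 1500 UMIs per cell these shares were 37.5% (22.7 to 54.2) and 8.89%. Ikzf2 had a UMI in 13 of 41 (31.7%, 18.1 to 48.1) and 4.70% (3.97 to 5.51), and Fcer1g in 8 of 41 (19.5%, 8.82 to 34.9) and 1.12% (0.775 to 1.56). Ly49 genes are near-identical in places, so counts of a given member are uncertain, whereas their union is less so.

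Effector genes outside cluster 6 had 8 of 17 higher and 1 lower (median 0.93), with Gzma at 86.0 and 9.39 CPM from 3 of 41 cells. Gzmb and Cx3cr1 had 0 UMIs in the 41 cells, where 3 counts would be 15.2 CPM. Gzmb, the 1 lower gene, was at 6.69 CPM without Trgv2, and its interval reached 1.51, so a lack of it was not shown. Residency genes had 5 of 17 higher and 1 lower (0.40), with Itgae in 6 of 41 cells (14.6%, 5.57 to 29.2) and 8.48% of the others. Anergy-like and inhibitory genes had 4 of 11 higher and 3 with a log2 ratio below 0 (median 0.67), with Pdcd1 at 45.5 and 3.86 CPM from 3 cells. Il2rb, the β chain of the IL-2 and IL-15 receptors, was at 470 and 309 CPM (0.61, 0.30 to 0.90), and the chemokine Xcl1 at 238 and 100.1 CPM (1.24, 0.80 to 1.67). Interferon response genes had 0 of 17 higher and 4 lower (-0.41), beside 12.8% lower among all genes. The interval was below 0 for 1 of the 17, and their median was 0.10 in cells of 3000 to 6000 UMIs. Cd8b1 was lower, at 941 and 1378 CPM (-0.55, -0.77 to -0.34), and Cd5, an inhibitor of receptor signalling, at 80.9 and 160 CPM (-0.97, -1.79 to -0.28). Cd8b1 had a UMI in 87.8% (73.8 to 95.9) and 96.7% (96.0 to 97.3) of cells, and in 55.0% (38.5 to 70.7) and 84.9% at 1500 UMIs. Cd8a was at 460 and 533 CPM (-0.21, -0.53 to 0.09).

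Cluster 0, which is itself led by Ly49 genes, held 20 of these 41 cells, so the comparison was made within it. There 16 of 20 cells with Trgv2 (interval 56.3 to 94.3%) and 223 of 587 without (38.0%, 34.0 to 42.1) had a Ly49 UMI. Ikzf2 was at 85.6 and 14.1 CPM (2.52, 1.37 to 3.66), Fcer1g at 95.1 and 12.5 CPM (2.84, 1.76 to 3.97), Klrc2 at 66.6 and 7.41 CPM (3.01, 1.70 to 4.45) and Cd8b1 at 685 and 1240 CPM (-0.86, -1.21 to -0.52). Klrk1 was at 28.5 and 60.9 CPM (-1.07, -3.39 to 0.48) and Klrc1 at 76.1 and 40.7 CPM (0.89, -0.34 to 1.93), both with intervals that held 0. In clusters 1 to 5, 6 of 21 cells with Trgv2 had a Ly49 UMI (28.6%, 11.3 to 52.2) and 12.7% of those without, and 6 had Ikzf2 (28.6%, 11.3 to 52.2) and 4.52%. The Ikzf2 difference had the same direction in cluster 0 and in clusters 1 to 5. These are parts of the same 41 cells in which Ikzf2, Fcer1g, Klra1 and Klrc2 were named, so neither part is separate support for any of them. Of the UMIs in the 41 cells, cluster 0 held all 7 of Klrc2 and 10 of the 12 of Fcer1g. Within cluster 6 Ikzf2 had 0 UMIs in the 39 cells (0 to 9.02%) and was in 5 of 143 others, too few to compare.

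**Figure D5:**
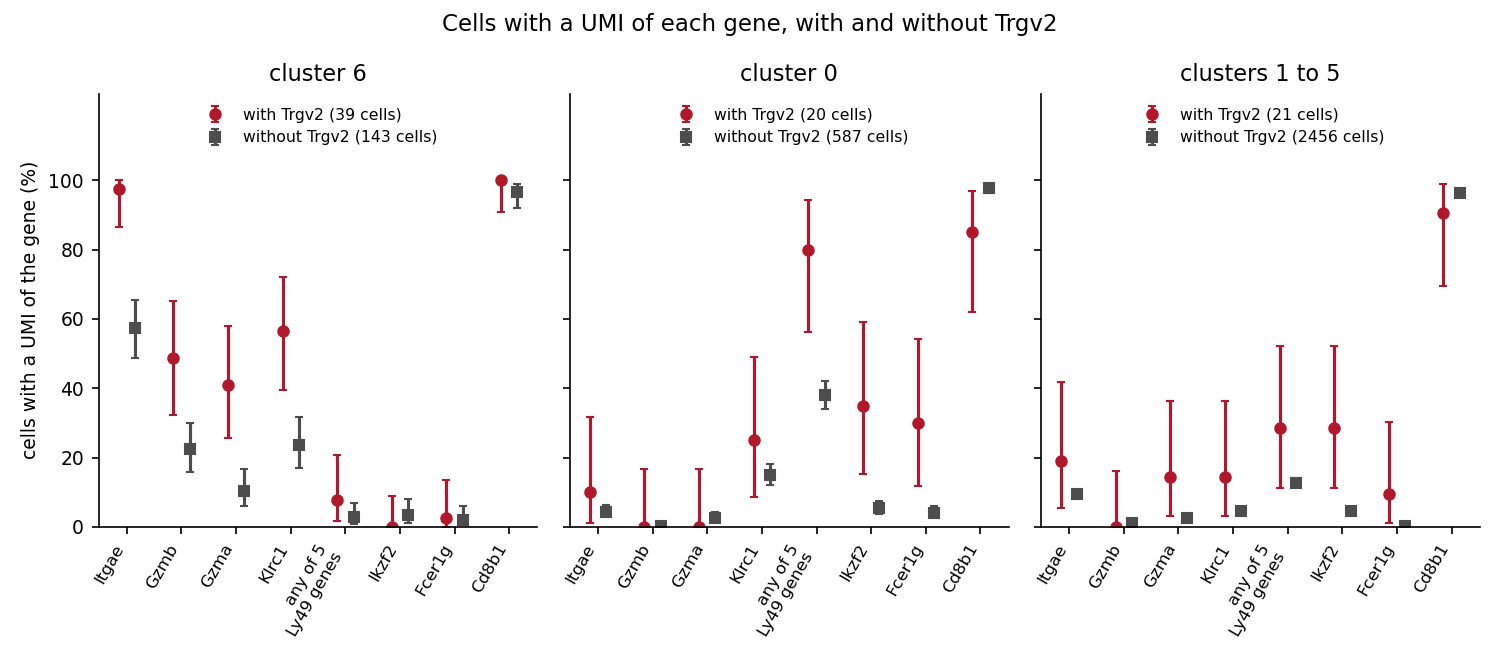
Percent of cells with 1 or more UMI of each gene, with Trgv2 (circles) and without (squares), in cluster 6, cluster 0 and clusters 1 to 5, with exact 95% intervals that cover counting error only and no correction for depth. Itgae had a UMI in 97.4% of cells with Trgv2 in cluster 6, Ly49 genes had a UMI in 16 of 20 in cluster 0, and Ikzf2 in 7 of 20 there and 6 of 21 in clusters 1 to 5.

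Across the 80 cells, a Ly49 UMI was seen in 25 and an Itgae UMI in 44, with 5 cells holding both and 16 neither. In cluster 6, 38 of 39 cells had Itgae and 3 had a Ly49 UMI, whereas outside it 6 of 41 had Itgae, 22 had a Ly49 UMI and 15 had neither.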

How the data were processed

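The deposited gene table of the lymph node holds UMI counts per gene and cell, made by the authors from 10x libraries, and the deposited receptor table holds contigs with their UMI counts. Bowtie, RSEM and the build mm10 are listed, without version or role, per the submitters' processing notes. Productive, full-length, high-confidence TRA and TRB contigs were used, 7423 of 9927. The 4 lanes of the library were pooled, so there is 1 sample, no test and no paired fit. The cells and gene lists were chosen with earlier results of these data known.

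UMIs were summed over cells with and without Trgv2, scaled to CPM, and compared as log2 ratios with 1 CPM added, for genes with 50 or more UMIs. Intervals are exact 95% intervals (Clopper-Pearson for shares, the ratio of 2 Poisson counts for genes). A gene at 0 UMIs has a floor of 3 counts. UMIs of a gene can cluster in few cells, which these intervals do not cover.

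Clusters were made with scanpy 1.11.5 and igraph 0.11.9 (Leiden, resolution 1, 2000 variable genes, 30 components, 15 neighbours), leaving out 59 receptor segment genes. Other tools were Python 3.11.15, numpy 2.4.6, scipy 1.17.1, pandas 2.3.3, biopython 1.88 and matplotlib 3.10.9. No doublet caller was run, and barcodes with 2 or more TRB were kept but given no clone. Total depth was 461 to 12576 UMIs per cell. The script was tested on simulated counts.

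Named genes are the 12 highest and 12 lowest ratios over all cells, and 6 and 6 within and outside cluster 6, among genes with a UMI in 10% or more of cells of the higher side and the same direction at 3000 to 6000 UMIs and with cells weighted equally, with the 2 highest and 2 lowest of each list considered. Of the lists' members, those printed and a few further genes (among them Cx3cr1, Klrk1 and Stard3nl by cluster, and Klrc2, Ikzf2 and Fcer1g within cluster 0) were chosen after their values were seen.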

Additional observations from a re-analysis of the deposited data

How the results depend on the processing

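No paired analysis was possible because the 4 lanes are runs of 1 library and no result comes from a test. Under the alternatives, 60 main values stayed within their interval or within 1.5 times and 43 moved by more. The cause was not tested. List medians were taken anew over the members that met the UMI minimum under each alternative. Of 498 list medians under the alternatives, 152 moved and 96 had the other sign, 2 of them from a main value past 0.5 in size: the γδ program over all cells went from 0.98 to -0.45 at 3000 to 6000 UMIs, and the γδ receptor list, which is Trdv2-2 alone, from -0.74 to 0.34 with 2 or more UMIs of Trgv2. With 2 or more UMIs of Trgv2 required, it was in 0.902% of all cells, 11.2% of cluster 6 and 0.360% of other cells, TRA was on 86.2%, TRB on 96.6%, both on 86.2% and neither on 3.45%, 33.3% of clones were shared with skin, and 842 genes were higher and 1425 lower (1204 higher outside cluster 6). Thinned to 1500 UMIs, the shares were 1.13%, 12.2% and 0.578%, and 1166 genes were higher, 1402 lower and 1424 higher outside cluster 6. In cells of 3000 to 6000 UMIs, the share was 1.81%, TRA was on 86.1%, TRB on 94.4%, both on 86.1% and neither on 5.56%, 0% were in clones of 2 or more cells, and 1010 genes were lower. At clustering resolution 0.5 the matching cluster held Trgv2 in 7.97% of cells and had 113 higher genes. With contigs of 3 or more UMIs, TRA was on 61.3% and both on 55%. A prior of 10 CPM gave 90 higher, 25 lower, 5 higher in cluster 6 and 129 higher outside. Equal weights per cell gave 644 higher, 776 lower and 22 higher in cluster 6. Within cluster 6, 302 genes were higher with a minimum of 10 UMIs and 945 with none. Outside cluster 6, 1140 genes were lower. Alternatives added after seeing the data were an interval that leaves out 0 (253 higher, 48 lower, 192 higher outside cluster 6) and cells with a TRA and exactly 1 TRB (896 lower, 3 higher in cluster 6).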
